A study of Mus musculus with 12 samples.

Results

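The 8 genes of the E2F transcription factor family, E2f1 to E2f8, were taken by symbol from the 31301 genes of a read count table of mouse basophils. All 8 were listed, and 7 had enough reads to be tested; E2f5 did not. E2f1, E2f2 and E2f3 are the activators of the family, and E2f4, E2f5, E2f6, E2f7 and E2f8 are its repressors.

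E2F proteins bind the promoters of genes needed for entry into S phase. The activators and E2f4 and E2f5 bind DNA together with a DP protein (Tfdp1, Tfdp2) and are held by the pocket proteins Rb1, Rbl1 (p107) and Rbl2 (p130), which cyclin-dependent kinases release by phosphorylation. E2f6 acts through a Polycomb complex without pocket proteins, and E2f7 and E2f8 bind DNA without a DP partner and repress genes late in S phase. In bone marrow, cells of the myeloid lineages divide as progenitors and leave the cell cycle as they mature.

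Bone marrow cells of wild-type C57BL/6J mice were cultured for 7 days in IL-3 at 0.3 ng/mL, or in TSLP, to obtain bone marrow-derived basophils (BMBAs). The labels give the TSLP dose as 1 μg/mL in one field and in mg/mL in another. CD200R3+ c-Kit- BMBAs were sorted into FcεRIα-high CD49b-low cells, called immature here (the pre-basophils of the study), and FcεRIα-low CD49b-high mature cells. The 4 groups, immature and mature cells of the IL-3 culture and the same of the TSLP culture, held 3 libraries each, all from unmodified cells of one strain. The sorted fractions were obtained in culture, and a fraction can mix cells at several points of the cell cycle. Transcripts of the sort markers followed their labels in part. Itga2, which encodes CD49b, was at 22.5 to 31 reads per 1000000 (CPM) in IL-3 immature and at 192 to 309 CPM in IL-3 mature libraries. In TSLP it was at 81.5 to 89.1 CPM in immature and 96.9 to 209 CPM in mature libraries. Fcer1a, which encodes FcεRIα, was at 1584 to 1614 CPM against 865 to 1267 CPM in IL-3, but at 1222 to 1530 CPM against 871 to 1778 CPM in TSLP, where the groups overlapped. Clec12a, a lectin receptor that marks pre-basophils and was not used for the sort, was at 238 to 291 CPM in IL-3 immature and at 2.25 to 10.7 CPM in IL-3 mature libraries. Kit stayed at or below 1.46 CPM in all 12.

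Library totals ran from 1720065 to 3685285 counts. The ribosomal transcript Rn45s took 7.43% to 20.2% of a library. One library, TSLP mature 1, stood apart from its group. Its 8 neutrophil lineage markers summed to 672 CPM against 23.6 and 16 CPM in TSLP mature 2 and 3. Its 7 B cell lineage markers summed to 136 CPM against 14.8 and 17.5 CPM. Other lineage markers also moved with the groups. The neutrophil list summed to 727 to 802 CPM in IL-3 immature libraries, nearly all of it Mpo (651 to 760 CPM), and to 182 to 274 CPM in IL-3 mature and 314 to 400 CPM in TSLP immature ones. With stage, 1 of its 7 tested genes, Mpo, was higher in immature cells in both cultures. Over all genes that share was 22.1% in IL-3 and 12.2% in TSLP. Ly6g alone was higher in mature cells of IL-3, beside 24.1% of all genes. In mature cells of TSLP, with TSLP mature 1 in the group, 6 genes were higher, Ly6g among them, beside 12.9% of all genes. The B cell list stayed at 2.14 to 6.95 CPM in IL-3 and at 26.2 to 32 CPM in TSLP immature libraries. The 6 macrophage and dendritic cell markers summed to 10.3 to 32.5 CPM in IL-3 immature, 93.4 to 155 CPM in IL-3 mature, 60.4 to 70.8 CPM in TSLP immature and 240 to 294 CPM in TSLP mature libraries. The mast cell list held 5 genes, Kit among them, of which 1 had enough reads to test. It summed to 2761 to 3232 CPM in IL-3 immature and 1314 to 1853 CPM in IL-3 mature libraries. In TSLP it summed to 1600 to 1684 CPM in immature and 656 to 863 CPM in mature libraries. E2F calls that were gained or lost without this library are named below, and the part of other cells in any E2F result was not tested. The libraries of a group are taken as separate cultures, as the study states, and p-values measure the spread between them. In bulk samples, fewer cycling cells and less E2F RNA per cycling cell cannot be told apart.

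Promoter sequences are shown for E2f7, E2f8, E2f3 and E2f6. All 4 were higher in immature cells in both cultures, while only the first 3 carry E2F letters. E2f1, which was also higher in both and holds no E2F letters in its window, is not shown. Each line is the 250 bases upstream of the RefSeq start site on the gene's strand in GRCm38.p6, at chr10:110745189-110745438 (plus strand) for E2f7, chr7:48881597-48881846 (minus) for E2f8, chr13:29986064-29986313 (minus) for E2f3 and chr12:16810715-16810964 (plus) for E2f6. Capitals mark matches to the E2F motif on either strand. It was spelled TTCCCGC, the commonest textbook form, or TTCGCGC in a second form, or, with other middle letters, TTGCCGC and lastly TTGGCGC.
E2f7: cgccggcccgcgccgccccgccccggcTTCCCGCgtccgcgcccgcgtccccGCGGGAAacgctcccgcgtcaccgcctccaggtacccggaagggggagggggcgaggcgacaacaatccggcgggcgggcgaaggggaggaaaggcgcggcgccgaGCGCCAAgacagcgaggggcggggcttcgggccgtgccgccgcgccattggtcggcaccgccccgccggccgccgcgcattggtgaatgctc
E2f8: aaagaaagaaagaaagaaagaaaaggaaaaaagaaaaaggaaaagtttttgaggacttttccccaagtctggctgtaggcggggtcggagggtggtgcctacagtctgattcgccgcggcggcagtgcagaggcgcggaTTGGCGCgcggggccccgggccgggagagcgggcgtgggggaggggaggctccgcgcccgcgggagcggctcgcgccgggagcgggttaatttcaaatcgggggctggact
E2f3: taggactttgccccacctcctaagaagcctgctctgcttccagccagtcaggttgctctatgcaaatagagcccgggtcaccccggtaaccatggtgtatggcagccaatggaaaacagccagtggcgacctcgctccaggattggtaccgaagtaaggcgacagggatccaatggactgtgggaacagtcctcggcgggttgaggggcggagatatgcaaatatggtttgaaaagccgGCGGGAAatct
E2f6: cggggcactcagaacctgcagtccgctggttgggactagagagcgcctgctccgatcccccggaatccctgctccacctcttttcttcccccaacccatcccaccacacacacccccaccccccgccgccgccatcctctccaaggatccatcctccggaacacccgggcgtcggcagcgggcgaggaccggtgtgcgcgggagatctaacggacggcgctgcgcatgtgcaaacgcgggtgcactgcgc
The E2f7 window held 3 matches, starting 223, 198 and 92 bases before the start site. The E2f8 window held 1 match 111 bases before the start, where its first 4 letters overlap a CCAAT read on the opposite strand. E2f3 held 1 match 11 bases before the start and another after it, and E2f2 held 1 in the bases after its first start site. No match was found in the E2f1 and E2f6 windows, and the E2f1 entry begins 466 bases inside the gene annotated by GENCODE. Of 32851 RefSeq promoter windows of 300 bases, 9.57% held such a match. CCAAT, the letters bound by NF-Y, stood in 37.4% of the windows, and TTTGAA, the core of the CHR element of late cell cycle genes, stood in 17.9%. Both were found, on either strand, near start sites of E2f2, E2f3 and E2f8, and E2f7 had CCAAT alone. In E2f2, TTTGAA stood only near the start site that lies 8388 bases inside the gene annotated by GENCODE. These letters are descriptions of the windows and do not show binding.

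**Figure D1:**
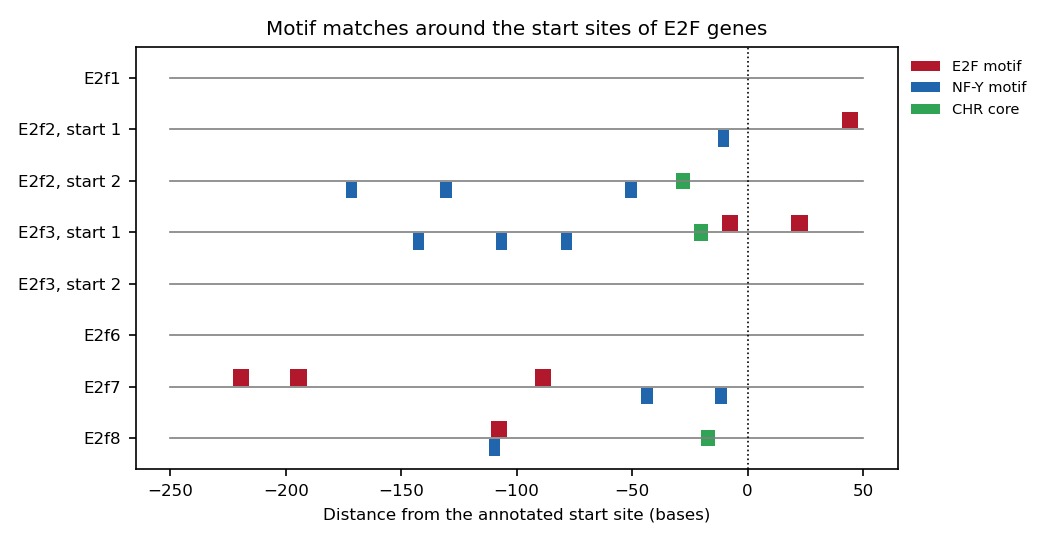
Positions of motif matches around the 8 RefSeq start sites of the 6 E2F genes with an entry. The x axis is the distance from the start site in bases, from 250 before to 50 after. Red bars are E2F matches, blue bars are matches to the NF-Y letters and green bars are the CHR core. E2f7 has 3 red bars upstream of its start, E2f8 has 1, and E2f1 and E2f6 have none.

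The first question was how E2F transcripts differ between immature and mature cells of the IL-3 culture. Of the 7 tested members, 5 were higher in immature cells and 0 in mature cells, where 22.1% of the 10861 genes tested were called higher in IL-3 immature cells. The activators E2f1 and E2f3 and the repressors E2f6, E2f7 and E2f8 made up the 5. E2f2 and E2f4, the family members with the most reads per length, did not pass the test. The median over all genes was a log2 difference of -0.06. Each gene was tested with edgeR's quasi-likelihood F test, adjusted by Benjamini-Hochberg over all tested genes and called at an adjusted p under 0.05. Statements that groups overlap or not describe the values of the 3 libraries of each. The share of all genes without overlap was not computed, so such statements add nothing to the tests.

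E2f1 (chr2:154559407-154569892, GRCm38) encodes the activator best known for driving S-phase genes. It stood at 28.6, 32.3 and 30.1 CPM in IL-3 immature libraries 1 to 3 and at 7.12, 6.92 and 7.22 CPM in IL-3 mature libraries. The groups did not overlap, and the mature values were almost the same in all 3 libraries. The log2 difference was 2.10 ± 0.23 (SE, n = 3 and 3, edgeR adjusted p = 2.13e-06), a fold of 4.28.

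E2f3 (chr13:29906575-29986063) encodes a second activator that is needed for the proliferation of many cell types. It stood at 37.4, 31.1 and 22.5 CPM in IL-3 immature and at 5.70, 5.46 and 10.4 CPM in IL-3 mature libraries. The groups did not overlap, with a wider spread than for E2f1. The log2 difference was 2.09 ± 0.31 (SE, edgeR adjusted p = 3.81e-05). E2f1 and E2f3 thus had fitted stage differences that lay within each other's 95% intervals, 1.60 to 2.59 and 1.44 to 2.74.

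E2f2 (chr4:136172394-136196057), the third activator, is abundant in blood-forming cells. It stood at 162, 179 and 191 CPM in IL-3 immature and at 124, 145 and 145 CPM in IL-3 mature libraries. All immature values lay above all mature values, but the log2 difference of 0.36 ± 0.17 missed the threshold (SE, edgeR adjusted p = 0.0946). Its 95% interval ran from about 0 to 0.72. In 6 of 9 other ways to process the counts E2f2 was called, among them DESeq2 with 0.43 (adjusted p = 0.0273), and also without TSLP mature 1, with 0.41 (adjusted p = 0.0384).

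E2f4 (chr8:105297663-105305370) encodes the main E2F of resting cells, where it works with Rbl2 and Rbl1. It stood at 159, 92.6 and 123 CPM in IL-3 immature and at 98.0, 82.0 and 115 CPM in IL-3 mature libraries, and the groups overlapped. The log2 difference was 0.34 ± 0.24 (SE, edgeR adjusted p = 0.256), with a 95% interval from -0.16 to 0.84.

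E2f6 (chr12:16810963-16839742) encodes the Polycomb-linked repressor. It stood at 7.28, 11.7 and 10.3 CPM in IL-3 immature and at 1.07, 1.46 and 1.35 CPM in IL-3 mature libraries. The 3 mature libraries held 10 E2f6 reads in all, against 87 in the immature ones. The log2 difference was 2.90 ± 0.38 (SE, edgeR adjusted p = 1.27e-05).

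E2f7 (chr10:110745439-110787384) and E2f8 (chr7:48866429-48881596) encode the atypical repressors, which switch off S-phase genes as the cycle proceeds. E2f7 stood at 27.2, 32.3 and 25.2 CPM in IL-3 immature libraries. No E2f7 read was counted in any IL-3 mature library. With 3 counts over the group as the limit that a count of 0 allows (0.386 CPM, counting error only), E2f7 was at least 73-fold higher in IL-3 immature cells (edgeR adjusted p = 7.59e-07).

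E2f8 behaved differently from E2f7 in its level in mature cells. It stood at 118, 129 and 144 CPM in IL-3 immature and at 46.7, 46.6 and 39.7 CPM in IL-3 mature libraries. The groups did not overlap, yet E2f8 was read in all mature libraries. The log2 difference was 1.55 ± 0.17 (SE, edgeR adjusted p = 1.84e-06), a fold of 2.94. The E2f8 exons overlap those of Gm2788 on the opposite strand over 610 bases, and 8.26% of its 50-base stretches also occur there. The sources used here do not state whether reads were counted by strand, so reads of the pair from the shared bases cannot be told apart.

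E2f5 (chr3:14578641-14606309), like E2f4 a pocket-protein-bound repressor, had 26 reads over the 12 libraries and was left out by the filter on low counts. It held 3, 0 and 1 reads in immature and 1, 0 and 0 in mature libraries of IL-3, and 2, 2 and 0 in immature and 7, 7 and 3 in mature libraries of TSLP. Of the 26 reads, 17 fell in TSLP mature cells, at 1.89, 1.99 and 0.923 CPM. No test was made, and 26 of its exonic bases overlap 1810022K09Rik on the opposite strand.

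**Figure D2:**
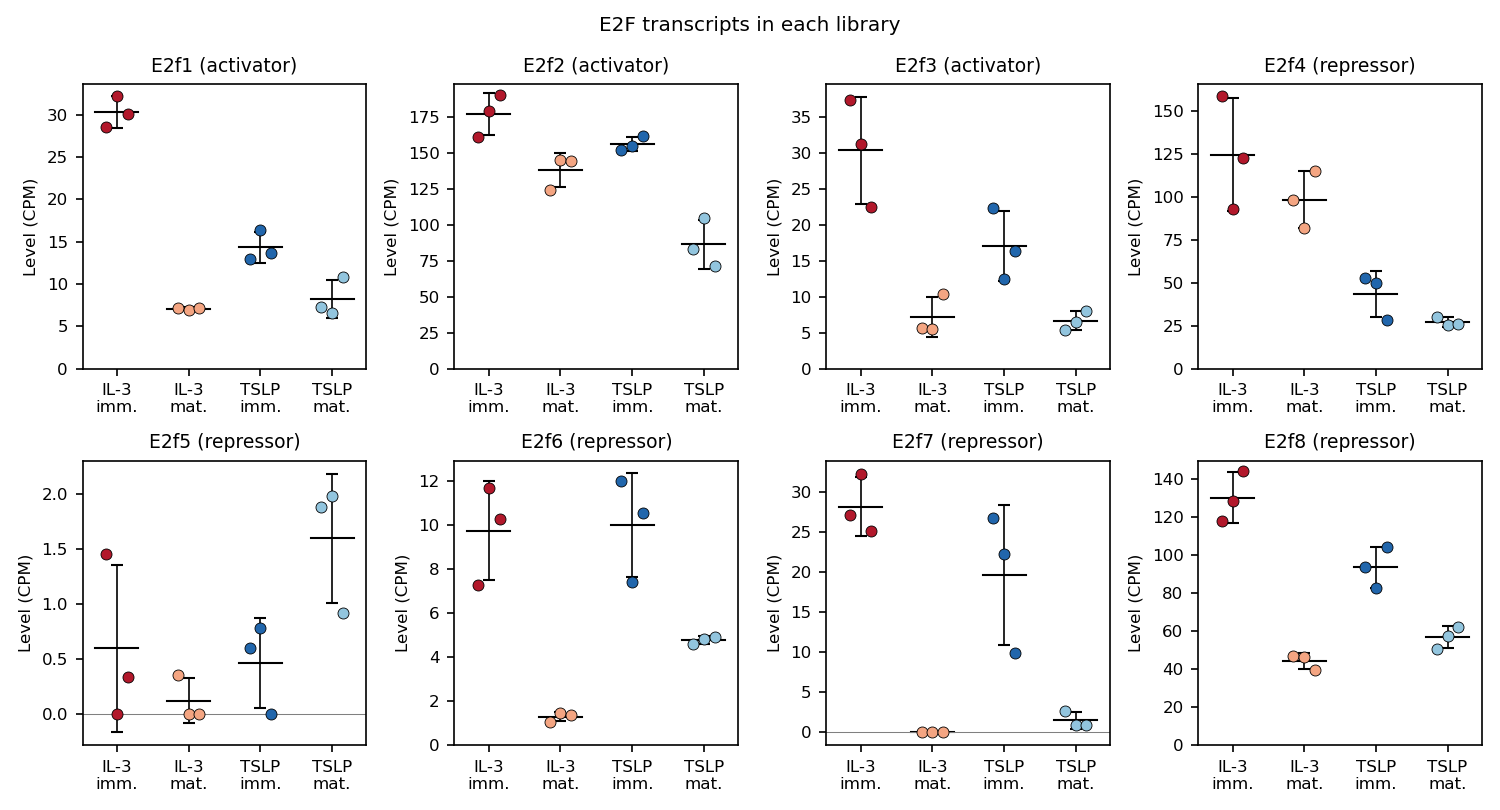
Level of each E2F gene in CPM (y axis, linear, a separate scale per gene) in the 12 libraries, with 3 points per group. Horizontal lines are group means and bars are ± 1 SD. E2f7 lies at 0 in all IL-3 mature libraries and E2f4 is lower in both TSLP groups than in both IL-3 groups.

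In the TSLP culture, 6 of the 7 tested members were higher in immature cells and 0 in mature cells, against 12.2% of all genes called higher in TSLP immature cells. The 6 were all 3 activators and E2f6, E2f7 and E2f8. The median over all genes was a log2 difference of -0.03. E2f4 stood at 52.9, 49.6 and 28.3 CPM in TSLP immature and at 30.2, 25.3 and 25.9 CPM in TSLP mature libraries, and the groups overlapped. Its log2 difference of 0.68 ± 0.25 missed the threshold (SE, edgeR adjusted p = 0.0567). Without TSLP mature 1 it was 0.87 (adjusted p = 0.0253) and passed. It also passed without IL-3 immature 1 or 2, IL-3 mature 3 or TSLP immature 3, with 0.76 to 1.01, and in 4 of 9 other ways to process the counts.

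The activators fell with maturation in TSLP by less than 3-fold each. E2f1 stood at 12.9, 16.4 and 13.6 CPM in TSLP immature and at 7.29, 6.53 and 10.8 CPM in TSLP mature libraries, a log2 difference of 0.80 ± 0.23 (SE, edgeR adjusted p = 0.0174). The E2f1 call was lost without TSLP immature 2 (adjusted p = 0.0521), with counts thinned to the smallest library (0.59, adjusted p = 0.148) and with only the TSLP groups in the fit (adjusted p = 0.0619). E2f2 stood at 152, 155 and 162 CPM in TSLP immature and at 83.4, 105 and 71.4 CPM in TSLP mature libraries, a difference of 0.85 ± 0.17 (adjusted p = 0.00167). As in IL-3, all immature E2f2 values lay above all mature ones, and the difference between the cultures did not pass the interaction test (adjusted p = 0.288). E2f3 stood at 22.3, 12.5 and 16.3 CPM against 5.4, 6.53 and 8 CPM, a difference of 1.37 ± 0.30 (adjusted p = 0.00355).

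Among the repressors, E2f7 had the widest TSLP difference. It stood at 26.8, 22.3 and 9.87 CPM in TSLP immature and at 2.70, 0.851 and 0.923 CPM in TSLP mature libraries. TSLP mature 1, the library with neutrophil and B cell markers, held 10 of the 16 reads of the mature group. The log2 difference was 3.66 ± 0.46 (SE, edgeR adjusted p = 4.57e-05) with TSLP mature 1 and 4.51 without it. E2f6 stood at 12, 7.42 and 10.6 CPM against 4.59, 4.82 and 4.92 CPM, a difference of 1.07 ± 0.29 (adjusted p = 0.0132), and its call was lost without TSLP immature 1 (adjusted p = 0.0608) and with thinned counts (adjusted p = 0.0539). E2f8 stood at 93.8, 82.8 and 104 CPM against 50.7, 57.6 and 62.2 CPM, a difference of 0.72 ± 0.17 (adjusted p = 0.00457). No overlap was seen between immature and mature libraries for any of E2f6, E2f7 and E2f8, with no share over all genes to set beside it.

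Mature cells of the 2 cultures were then compared. E2f6 and E2f7 were higher in TSLP mature cells (2 of 7 tested, where 12.4% of all genes were called higher in TSLP), and E2f2 and E2f4 were higher in IL-3 mature cells (2 of 7, where 11.9% were called higher in IL-3). E2f4 had the clearest difference, with a log2 difference of -1.85 ± 0.25 for TSLP minus IL-3 (SE, edgeR adjusted p = 0.000238), so that its IL-3 mature level was 3.62-fold the TSLP mature level. E2f2 differed by -0.67 ± 0.17 (adjusted p = 0.0108). E2f6 differed by 1.86 ± 0.41 (adjusted p = 0.00486). E2f7 was at least 3.86-fold higher in TSLP mature cells, from 16 reads against 0 (adjusted p = 0.0228). Without TSLP mature 1, 6 reads remained and the limit was at least 2.3-fold. The E2f7 call was lost without TSLP mature 1 (adjusted p = 0.0903) and without IL-3 mature 1, 2 or 3 (0.0605, 0.0752 and 0.0678), and with thinned counts (adjusted p = 0.186). E2f1, E2f3 and E2f8 did not pass, with log2 differences of 0.20 (95% interval -0.34 to 0.74), -0.09 (-0.82 to 0.64) and 0.36 (-0.01 to 0.72). The E2f8 groups did not overlap.

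Immature cells of the 2 cultures differed in 2 members. E2f1 and E2f4 were higher in IL-3 immature cells (2 of 7 tested, where 5.90% of all genes were called higher in IL-3). In TSLP immature cells 0 were higher, beside 7.38% of all genes. E2f1 differed by a log2 of -1.09 ± 0.21 (SE, edgeR adjusted p = 0.00326) and E2f4 by -1.51 ± 0.24 (adjusted p = 0.000928). Both groups of values were apart in each gene. E2f3 (-0.81 ± 0.27, adjusted p = 0.0587) and E2f8 (-0.48 ± 0.16, adjusted p = 0.0637) also had no overlap and lay just beyond the threshold. Both were called without TSLP mature 1, at -0.83 (adjusted p = 0.0271) and -0.51 (adjusted p = 0.0157), and without IL-3 mature 3 or TSLP mature 3. E2f3 was called also without IL-3 immature 3 or TSLP immature 1, and E2f8 also without TSLP mature 2. In other ways to process the counts, E2f3 was called in 5 of 9 and E2f8 in 7 of 9. E2f6 differed by 0.02 (95% interval -0.56 to 0.61), and the sign of this value turned in 8 of 9 other ways to process the counts. E2f4 was thus the member that differed by cytokine at both stages, and the only one called in both cytokine comparisons.

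**Figure D3:**
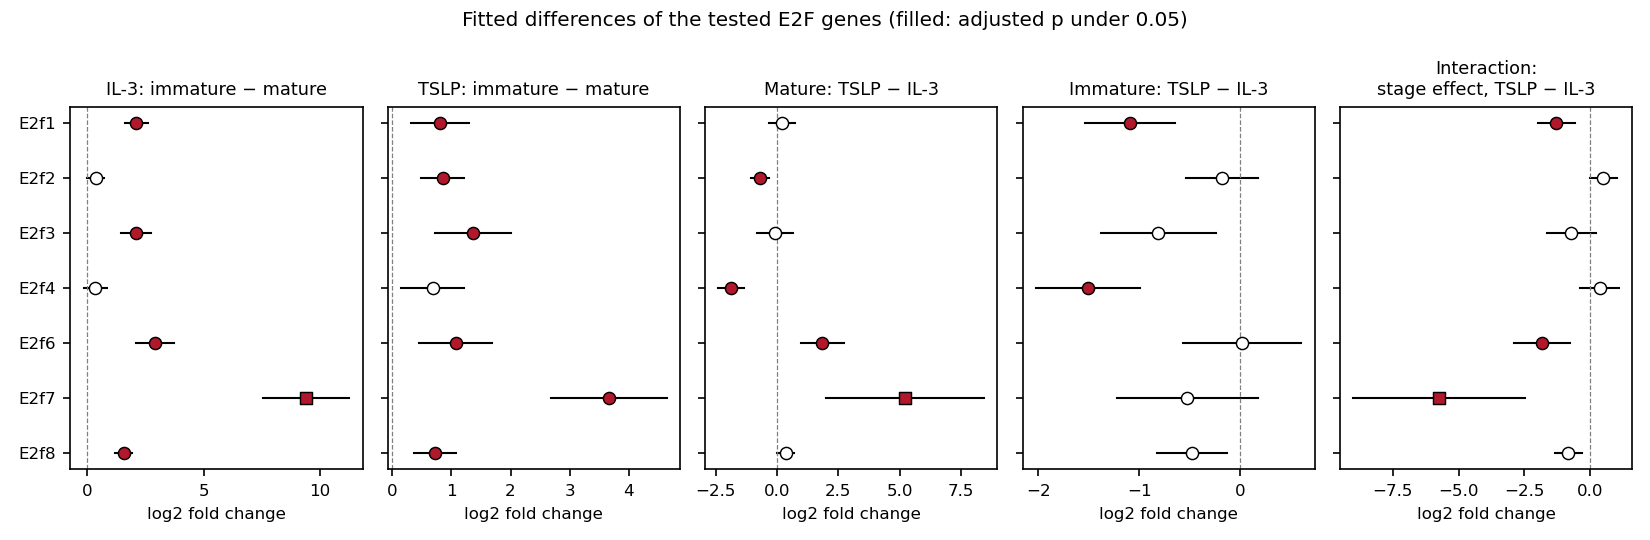
Fitted log2 differences (x axis, a separate scale per panel) of the 7 tested E2F genes in the 5 comparisons, with 95% intervals as lines. Filled points passed an adjusted p under 0.05. Squares mark E2f7 where the IL-3 mature group held no read, so that the fitted value depends on the fit's prior and is no bound. The points of both stage panels lie above 0 for all 7 members, while E2f4 lies below 0 in both TSLP minus IL-3 panels.

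The difference between the cultures in the stage effect was tested as an interaction, TSLP minus IL-3. It passed for 3 of 7 members, all with the smaller stage difference in TSLP, where 2.04% of all genes were called more negative in TSLP. E2f1 had -1.29 ± 0.33 (SE, edgeR adjusted p = 0.0372), E2f6 had -1.83 ± 0.50 (adjusted p = 0.0485), and E2f7 had an adjusted p of 0.0492 with a fold of at least 73 in IL-3 against 12.6 in TSLP. All 3 lay close to the threshold. With 1 library left out, 0 to 2 members were called. E2f1 kept its call without TSLP mature 1 or 2 only, E2f6 without IL-3 immature 1 only and E2f7 without TSLP immature 3 only. The adjusted p over the 12 such fits ran from 0.0292 to 0.107 for E2f1, from 0.0438 to 0.125 for E2f6 and from 0.0365 to 0.141 for E2f7. E2f8 (-0.83 ± 0.24, adjusted p = 0.0579) was called without TSLP mature 1 (adjusted p = 0.0247). In 8 other ways to process the counts, E2f1 kept its call in all 8, E2f6 lost it in 4 (adjusted p up to 0.103), E2f7 lost it in 5 (up to 0.261) and E2f8 gained one in 5 (down to 0.0092). E2f2, E2f3 and E2f4 did not pass, with 0.49, -0.72 and 0.35.

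Levels were set side by side per length, as CPM per kb of the union of a gene's exons in GENCODE M21 (GRCm38). This scale assumes that reads fall evenly along the exons, and long 3′ ends lower the values of E2f6 and E2f7. E2f4 led in IL-3 cells, at 50.8 ± 13.5 CPM per kb in immature and 40.1 ± 6.74 in mature libraries (mean ± SD, n = 3). E2f2 led in TSLP cells, at 32 ± 0.978 and 17.7 ± 3.46 CPM per kb. E2f2 came next in IL-3 cells, at means of 36.3 and 28.3 CPM per kb, and E2f4 in TSLP cells, at 17.8 and 11.1. E2f8 had a lower mean than E2f4 and E2f2 in each group. It stood at 23.9 ± 2.45, 8.14 ± 0.738, 17.2 ± 1.96 and 10.4 ± 1.06 CPM per kb in immature and mature libraries of IL-3 and then of TSLP. E2f1 and E2f3 stayed at or below 10.2 CPM per kb in each library, and E2f5, E2f6 and E2f7 at or below 3.58.

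E2f2 made up most of the activator level on this scale. It held 67.5% to 74.0% of the summed activators in immature and 87.6% to 90.3% in mature libraries of IL-3, 79.2% to 81.9% in TSLP immature and 74.9% to 86.8% in TSLP mature libraries. In IL-3 the 2 ranges were apart, and in TSLP they overlapped. The activators together held 34.9% to 44.0% of the summed family in immature and 37.0% to 43.8% in mature libraries of IL-3, and 47.1% to 54.6% and 45.4% to 51.9% in the TSLP ones. On this scale the activator share overlapped between stages within each culture and was higher in every TSLP library than in every IL-3 library. Both statements turn on the scale. As a share of CPM, without division by length, the activators held 42.1% to 47.8% in immature and 48.4% to 54.8% in mature libraries of IL-3, which did not overlap, and 48.8% to 56.5% in TSLP libraries, which overlapped those of IL-3. On the per-length scale, E2f4 held 31.5% to 53.1% of the family in IL-3 and 15.6% to 27.9% in TSLP libraries.

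**Figure D4:**
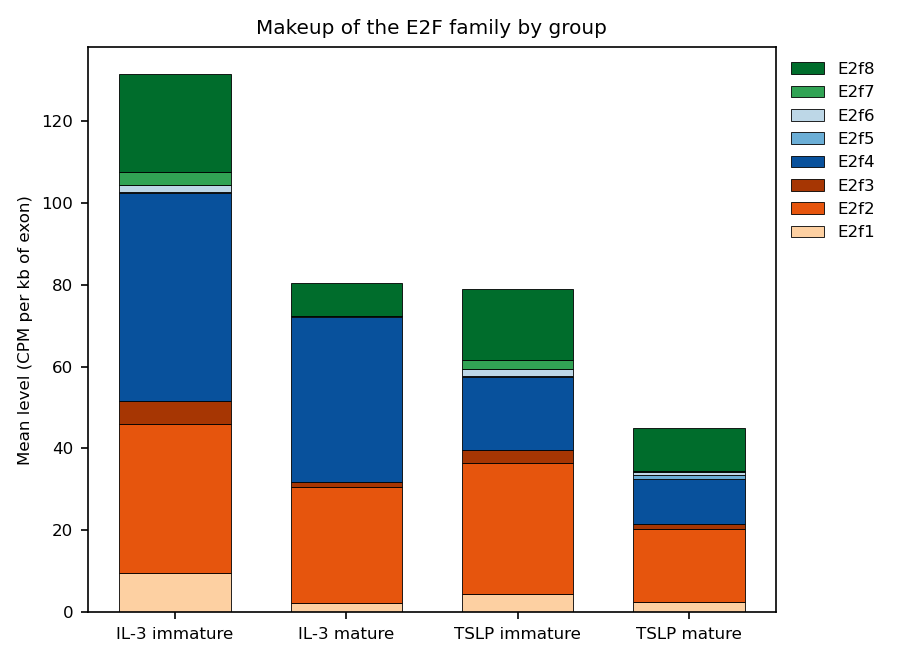
Mean level of the 8 E2F genes in CPM per kb of exon (y axis), stacked by group, from 3 libraries each. Orange shades are the activators, blue shades E2f4 to E2f6 and green shades E2f7 and E2f8. The E2f4 block is 50.8 and 40.1 CPM per kb in the IL-3 groups and 17.8 and 11.1 in the TSLP groups.

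The order of the groups differed between members. E2f1, E2f3 and E2f8 had the order IL-3 immature, TSLP immature and then both mature groups, of which TSLP and IL-3 overlapped for E2f1 and E2f3. E2f2 ran from IL-3 immature (177 CPM) and TSLP immature (156 CPM), which overlapped, over IL-3 mature (138 CPM) to TSLP mature (86.5 CPM). E2f4 followed the cytokine before the stage, with means of 125, 98.3, 43.6 and 27.1 CPM in immature and mature cells of IL-3 and then of TSLP. Its stages overlapped within each cytokine. E2f6 and E2f7 had both immature groups overlapping, then TSLP mature, then IL-3 mature cells.

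Profiles were also compared gene by gene, as the root mean square difference over the 12 libraries of log2 CPM centred on each gene's own mean, where a smaller value is a more like profile. Within the family, E2f1 and E2f8 were the closest pair at 0.318, and E2f4 and E2f7 the most distant at 2.31. Outside the family, the genes closest to E2f7 were Pimreg, Shcbp1 and Uhrf1 at 0.256 to 0.381. The genes closest to E2f6 were Ran, Pcna and Lrpprc at 0.265 to 0.274. Il3ra, which encodes the IL-3 receptor alpha chain, was closest to E2f4 at 0.238, followed by Srp19 and Pdap1. E2f8 had the closest neighbours of all, Naa50, Psmd1 and Baz1b at 0.131 to 0.155. E2f2 lay nearest to Stx17, Ccdc25 and Cul5 at 0.172 to 0.182. E2f1 lay nearest to Tardbp, Sec24d and Hspa5 at 0.246 to 0.259, and E2f3 to Hmgcs1, Spcs3 and Zbtb14 at 0.269 to 0.286. These are descriptions over libraries that share their groups.

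The partners of the E2F proteins split by stage. Tfdp1, the main DP subunit, stood at 83.0, 102 and 116 CPM in IL-3 immature and 56.3, 55.0 and 50.5 CPM in IL-3 mature libraries, a log2 difference of 0.90 ± 0.17 (SE, edgeR adjusted p = 0.000541). In TSLP it differed by 0.52 ± 0.17 (adjusted p = 0.0342), and it was higher in TSLP than in IL-3 mature cells by 0.52 ± 0.17 (adjusted p = 0.0395). The TSLP stage call was lost without TSLP immature 3 (0.49, adjusted p = 0.0683), without a filter (adjusted p = 0.0676) and with thinned counts (0.0822). The call between mature cells was kept only without IL-3 immature 1 or 3, with an adjusted p of up to 0.159 in the other 10 fits with 1 library left out, and was lost without a filter (0.0948) and with only the mature groups in the fit (0.0605). Tfdp1 shares 16.8% of its 50-base stretches with Gm7390, so its counts are uncertain in that part. Tfdp2, the second DP subunit, was higher in immature cells by 2.05 ± 0.32 in IL-3 (adjusted p = 7.21e-05) and by 1.00 ± 0.30 in TSLP (adjusted p = 0.0212). Its TSLP call was lost without TSLP immature 2 (0.88, adjusted p = 0.0782) or TSLP mature 3 (0.94, adjusted p = 0.0607), with thinned counts (0.75, adjusted p = 0.203) and with only the TSLP groups in the fit (adjusted p = 0.0564).

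The pocket proteins went 3 ways. Rbl1, which is itself made from an E2F-regulated gene, stood at 43.2, 50.6 and 46.7 CPM in IL-3 immature and at 8.19, 8.74 and 5.86 CPM in IL-3 mature libraries, a log2 difference of 2.61 ± 0.29 (SE, edgeR adjusted p = 2.42e-06). In TSLP it differed by 1.52 ± 0.28 (adjusted p = 0.00077). Rbl2, the pocket protein of resting cells, stood at 61.1, 66.3 and 69.2 CPM in IL-3 immature and at 170, 161 and 145 CPM in IL-3 mature libraries, a difference of -1.27 ± 0.20 (adjusted p = 7.16e-05). Rbl2 was the one partner that was higher in mature cells. Its TSLP difference of -0.54 ± 0.19 missed the threshold (adjusted p = 0.0514), and it was higher in TSLP than in IL-3 immature cells by 0.78 ± 0.20 (adjusted p = 0.0173). The first was called without TSLP mature 1 (-0.65, adjusted p = 0.00334), where Rbl2 stood at 114 CPM against 189 and 187 CPM in TSLP mature 2 and 3. The second was lost without IL-3 immature 1 or 2 or TSLP immature 1 or 3, with 0.67 to 0.75 and an adjusted p of up to 0.0819. Rb1 passed no test, with group means from 38.5 to 46.6 CPM and stage differences of 0.28 ± 0.25 in IL-3 and 0.03 ± 0.24 in TSLP. Rb1 and Rbl2 have exons that overlap genes of the opposite strand and share 12% and 17.1% of their stretches with other genes. No partner passed the interaction test.

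**Figure D5:**
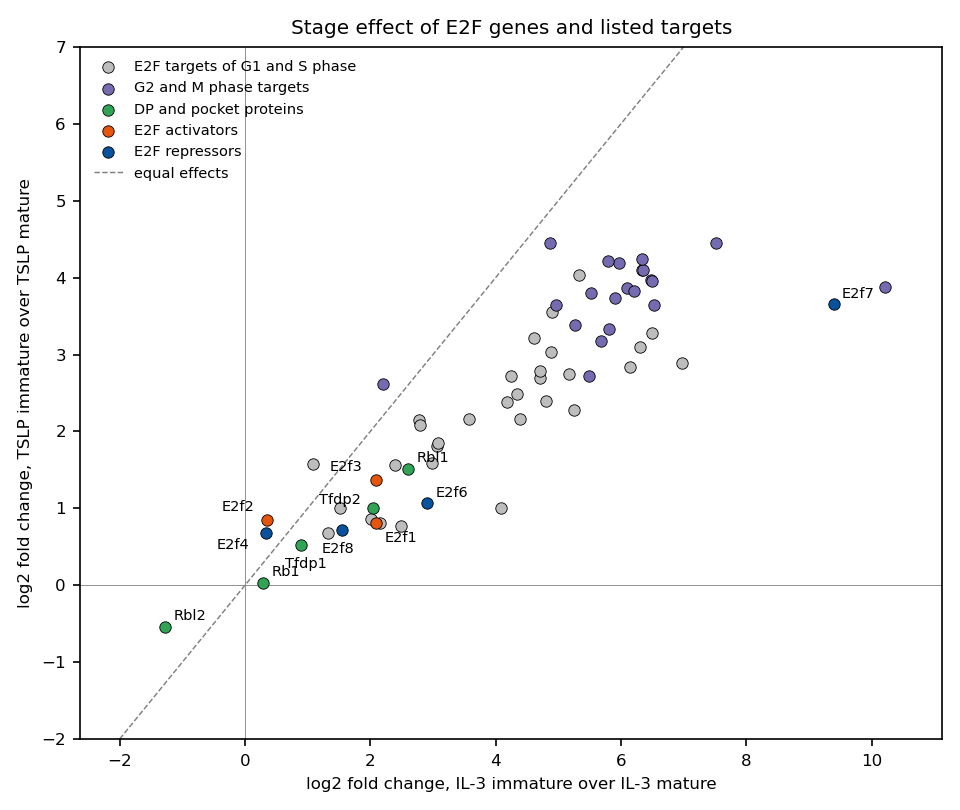
Fitted log2 differences, immature minus mature, in IL-3 (x axis) and in TSLP (y axis) for the E2F genes, their partners, and the listed targets. The dashed line marks equal effects. Both activators and repressors sit at or above 0 on both axes, Rbl2 sits below 0 on both, and the grey G1 and S phase targets extend to 6.97 in IL-3 and 4.10 in TSLP. E2f7 and the G2 and M phase gene at the far right, Bub1, had no read in IL-3 mature cells, so their x values are no bound.

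Genes that E2F proteins are known to control were read next. All 33 listed targets of G1 and S phase were higher in immature cells in both cultures, beside 22.1% of all genes in IL-3 and 12.2% in TSLP. Their median log2 difference was 4.33 in IL-3 and 2.38 in TSLP. With Orc1, which had no read in IL-3 mature cells, set at its limit, the IL-3 median was 4.25. Over the tested members the medians were 2.09 for the activators and 2.23 for the repressors in IL-3, and 0.85 and 0.90 in TSLP. Lig1, the replicative DNA ligase, differed by 6.97 ± 0.40 in IL-3 and 2.89 ± 0.30 in TSLP, and Rrm2, a subunit of ribonucleotide reductase, by 6.49 ± 0.48 and 3.28 ± 0.35. IL-3 mature 2 held all 10 Rrm2 reads of its group, and without it Rrm2 was at least 199-fold higher in IL-3 immature cells. The Lig1 value in IL-3 was 8.07 without that library. In mature cells 18 targets were higher in TSLP and 1 in IL-3, beside 12.4% and 11.9% of all genes. These 19 calls went to 13 to 16 when 1 library was left out. In immature cells 7 were higher in IL-3 and 0 in TSLP, and this count ran from 1 to 14 when 1 library was left out, with 3 and 2 without IL-3 immature 1 and 2, with 4, 3 and 1 without TSLP immature 1, 2 and 3, and with 14 without TSLP mature 1. The interaction passed for 15, all with the smaller stage difference in TSLP, where 2.04% of all genes were called more negative in TSLP. The list was drawn up with the cell cycle pattern of these data known.

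E2f4 and Rbl2 join the MuvB core in resting cells, and Mybl2 and Foxm1 join it in dividing ones. Of the 8 genes of the core and its activators, 5 were higher in immature cells in IL-3 and 3 in TSLP, and 0 were higher in mature cells. Over all genes, 22.1% in IL-3 and 12.2% in TSLP were higher in immature cells, and 24.1% and 12.9% in mature cells. Foxm1, a forkhead activator of mitotic genes, differed by 5.71 ± 0.38 in IL-3 (6.33 without IL-3 mature 1) and 3.12 ± 0.26 in TSLP. Mybl2 (B-Myb) differed by 5.10 ± 0.39 and 2.69 ± 0.32. Lin9, a subunit of the core, differed by 2.42 ± 0.43 and 2.43 ± 0.44. The IL-3 value was 3.47 without IL-3 mature 2, which held 11 of the 16 Lin9 reads of its group. All 20 listed G2 and M phase targets were higher in immature cells in both cultures, beside the same 22.1% and 12.2% of all genes. Their medians were 5.94 and 3.85. Cenpe, a kinetochore motor, differed by 7.51 ± 0.38 and 4.46 ± 0.30, and Aurkb, a mitotic kinase, by 3.64 ± 0.40 in TSLP. The Cenpe value in IL-3 was 8.34 without IL-3 mature 3, and that of Aurkb in TSLP was 4.33 without TSLP mature 1. In IL-3 the ratio of Aurkb was 102 (95% counting interval 34.5 to 496), from 337 reads against 3, all in IL-3 mature 1. Bub1, a checkpoint kinase, was at least 130-fold higher in IL-3 immature cells, where its mature group held no read, and differed by 3.88 ± 0.28 in TSLP.

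Regulators that act ahead of the E2F proteins went both ways. Of 11 tested G1 cyclins, kinases and inhibitors, 4 were higher in immature and 4 in mature cells of the IL-3 culture, where 22.1% and 24.1% of all genes were called in these directions. Cdk6 (3.50 ± 0.40), the inhibitor Cdkn2c (2.23 ± 0.21) and Cdk2 (1.96 ± 0.22) were higher in immature cells. The inhibitors Cdkn2b (-4.99 ± 0.60) and Cdkn1a (-2.06 ± 0.21) and the cyclin Ccnd2 (-3.47 ± 0.20) were higher in mature cells. All 6 were called in the same direction in TSLP, where 3 of the 11 were higher in immature and 4 in mature cells, against 12.2% and 12.9% of all genes. The TSLP call was lost for Cdk6 with only the TSLP groups in the fit (adjusted p = 0.0705) and for Cdkn2b with thinned counts (-1.50, adjusted p = 0.0632). The Cdkn2b value was -6.03 in IL-3 without IL-3 immature 2 and -1.57 in TSLP without TSLP immature 1. The TSLP call of Cdkn1a was kept only without library 1 of either IL-3 stage, TSLP immature 2 or TSLP mature 3, and its adjusted p reached 0.164 in the other fits with 1 library left out. It was also lost in 4 of 9 other ways to process the counts. Skp2 and Ccnf, subunits of ubiquitin ligases that act on E2F proteins, were 2 of 3 in their list. Both were higher in immature cells in both cultures, beside 22.1% and 12.2% of all genes. Ccnf differed by 4.84 ± 0.29 in IL-3 and 3.15 ± 0.24 in TSLP. The ratio of Skp2 in IL-3 was 65.2 (95% counting interval 11.3 to 2610), from 72 reads against 1, and its log2 difference in TSLP was 2.61 ± 0.83. The TSLP call of Skp2 was lost without TSLP immature 1 or 2 or TSLP mature 2 or 3, with an adjusted p of 0.0677 to 0.158, and Skp2 was at least 9.5-fold higher in TSLP immature cells without TSLP mature 1, which held all 7 Skp2 reads of its group.

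Genes tied to E2f6 were mixed. Of 12 tested Polycomb partners, 6 were higher in immature and 2 in mature cells in IL-3, against 3 and 1 in TSLP. Over all genes the shares were 22.1% and 24.1% in IL-3 and 12.2% and 12.9% in TSLP, so that the counts higher in mature cells were below the share over all genes. Cbx3 (1.55 ± 0.23), L3mbtl2 (1.39 ± 0.31) and Hdac2 (1.26 ± 0.24) were higher in IL-3 immature cells, and Max (-1.28 ± 0.17) and Ring1 (-0.78 ± 0.22) in IL-3 mature cells. The Ring1 call was lost without IL-3 immature 2 (-0.64, adjusted p = 0.0623) or IL-3 mature 1 (-0.57, adjusted p = 0.0564). Of 9 germ line genes kept silent through E2f6, 8 were listed and 1 had enough reads to test. That gene, Stag3, a cohesin subunit of meiosis, was higher in immature cells in both cultures. Its ratio was 16.9 in IL-3 (95% counting interval 5.49 to 84.4), from 56 reads against 3, and its log2 difference was 2.30 ± 0.54 in TSLP and 3.11 without TSLP mature 1. Of 6 tested apoptosis genes described as E2f1 targets, 2 were higher in IL-3 immature cells and 3 in IL-3 mature cells, beside 22.1% and 24.1% of all genes. The latter were Bcl2l11 (-1.75 ± 0.31), Bbc3 (-1.35 ± 0.21) and Pmaip1 (-1.27 ± 0.23). In TSLP, 2 were higher in immature and 2 in mature cells, beside 12.2% and 12.9% of all genes. Bcl2l11 lost its TSLP call in 8 of the 12 fits with 1 library left out, with an adjusted p of up to 0.134, and with the 10 CPM filter (0.0522) and thinned counts (0.154).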

How the data were processed

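The deposited table held raw read counts per gene for 12 libraries. Per the study's methods, the authors captured mRNA on oligo-dT beads, amplified cDNA by TAS-Seq, sequenced it on an Ion Proton, trimmed reads with Cutadapt, aligned them to reference RNA with Bowtie2 and counted reads per gene; whether counting used strand is not given in the sources used here. The submitters' processing notes name GRCm39 and mm10.

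A row without a name equals the sum of all other rows in the 12 libraries, 50% of each column, and was left out. Counts were fitted in R 4.3.3 with edgeR 4.0.16 (filterByExpr with a minimum count of 10 and total of 15, TMM, glmQLFit and glmQLFTest, 1 mean per group, all 12 libraries). Of 31301 genes 10861 were tested, and the common biological coefficient of variation was 20.4%. Benjamini-Hochberg adjustment ran over all tested genes. The SE of a log2 difference is its size divided by the square root of F, and prior count 2 was used for profiles. The study's TCC was not used here; its second TMM round was run as an alternative. Other alternatives were DESeq2 1.42.0, its size factors, no filter, a filter of 10 CPM in 3 libraries, Rn45s left out, thinning to the smallest total, the compared groups alone, a block on the replicate number and each library left out in turn. The fit was tested on simulated data.

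CPM are counts divided by the library total times its TMM factor, scaled to 1000000. Gene positions and exon lengths are from GENCODE M21 (GRCm38) and promoter windows from RefSeq (GRCm38.p6), with no entry for E2f4 and E2f5. Named genes are the 8 members, the 5 DP and pocket proteins, up to 3 genes per direction of each list by size among those called in the IL-3 stage comparison, and the 3 genes with the most similar profile to each tested member. Some genes that this rule names are not reported here. The members and lists were chosen with earlier results of these data known.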

Additional observations from a re-analysis of the deposited data

Results flagged for a closer look

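The stage difference (immature minus mature, log2) was more positive in IL-3 than in TSLP for 3 E2F genes and for 8 other named genes, and more negative in IL-3 for 2, by edgeR's interaction test over all tested genes; each was singled out because the effects of the same contrast differed between the 2 cultures. Values are TSLP minus IL-3.

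Among the E2F genes, E2f1 had -1.29 (adjusted p = 0.0372), E2f6 had -1.83 (adjusted p = 0.0485) and E2f7 had -5.74 (adjusted p = 0.0492). The E2f7 value depends on the prior of the fit, because no IL-3 mature library held an E2f7 read. With thinned counts the E2f7 and E2f6 calls were lost (adjusted p = 0.261 and 0.103).

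Among the activators of mitotic genes, Foxm1 had -2.59 (adjusted p = 0.0125) and Mybl2 had -2.41 (adjusted p = 0.0283). The Foxm1 call was lost without IL-3 mature 2 (adjusted p = 0.0635) and with thinned counts (0.0670), and the value was -3.21 without IL-3 mature 1. The Mybl2 call was lost with thinned counts (adjusted p = 0.133) and without IL-3 immature 2 or 3, IL-3 mature 2 or 3 or TSLP mature 1 or 3 (adjusted p = 0.0504 to 0.120).

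Among the S-phase genes, Lig1 had -4.08 (adjusted p = 0.00042) and Rrm2 had -3.22 (adjusted p = 0.0101). Their calls were kept in each fit with 1 library left out, while the Rrm2 value ran from -8.18 (without IL-3 mature 2, which held every Rrm2 read of its group) to -2.60 (without IL-3 mature 1) and the Lig1 value reached -5.12 without IL-3 mature 2.

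Among the mitotic genes, Bub1 had -6.34 (adjusted p = 0.00251), again with no read in IL-3 mature cells, and Cenpe had -3.06 (adjusted p = 0.00877; -3.81 without IL-3 mature 3).

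Among the G1 regulators, Ccnd2 had 1.32 (adjusted p = 0.00877) and Cdkn1a had 1.37 (adjusted p = 0.0132), so that both were higher in mature cells by less in TSLP. The Cdkn1a call was lost without TSLP immature 2 (adjusted p = 0.0512). Cdk6 had -2.25 (adjusted p = 0.0234), lost without IL-3 immature 2 or 3, IL-3 mature 1 or 2, TSLP immature 1 or 2 or TSLP mature 2 (adjusted p = 0.0536 to 0.0733). The ubiquitin ligase subunit Ccnf had -1.69 (adjusted p = 0.0232), lost without IL-3 mature 2 or 3, TSLP immature 2 or 3 or TSLP mature 2 (adjusted p = 0.0547 to 0.0887).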

How the results depend on the processing

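With 1 library left out, the members called ranged from 5 to 6 for stage in IL-3, from 5 to 7 for stage in TSLP, from 3 to 4 between mature cells, from 2 to 4 between immature cells and from 0 to 2 for the interaction (3 with all libraries). The G1 and S phase targets called ranged over 33 to 33, 30 to 33, 13 to 16, 1 to 14 and 12 to 17 in the same order. Between immature cells, 4 members were called with DESeq2 size factors, with the 10 CPM filter or with only the groups compared in the fit, against 2, and the last gave 14 targets against 7. The fit with only the groups compared gives no interaction.

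Over the gene results, fits with 1 library left out gave the same call 1242 times, a lost call 98 times, a gained call 17 times and a reversed sign 11 times, and other settings 931, 31, 29 and 8 times. The reversed values all lay near 0. E2f6 between immature cells went from 0.02 to -0.030 with DESeq2 size factors, -0.024 with DESeq2, -0.0062 with the second TMM round, -0.0026 without a filter, -0.020 with the 10 CPM filter, -0.0089 without Rn45s, -0.10 with thinned counts, -0.019 with only the groups compared and -0.18 to 0.15 with 1 library left out. With 1 library left out, E2f3 between mature cells ran from -0.31 to 0.18 (without IL-3 mature 3), E2f1 there from -0.077 (without TSLP mature 3) to 0.29, and Rb1 for stage in TSLP from -0.11 (without TSLP mature 1) to 0.28. The cause was not tested.

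Whether the replicate numbers pair the libraries could not be settled, and the main fit took them as unpaired. Of 18 same-number pairs, 7 had deviations correlated over 0.1 (r from -0.08 to 0.39), and 7 of 12 libraries were closest to their own number. Over all genes a replicate block gave more calls in each comparison, in the order above. They were 5251, 3067, 2853, 1893 and 556, against 5020, 2731, 2634, 1443 and 455 without it. With the replicate block 5, 7, 4, 3 and 2 members were called. E2f4 for stage in TSLP (0.68, adjusted p = 0.0391), E2f3 between immature cells (-0.83, adjusted p = 0.0433) and Rbl2 for stage in TSLP (-0.52, adjusted p = 0.0478) were gained, and E2f6 in the interaction (-1.83, adjusted p = 0.0614) was lost.

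Over all genes, the calls went from 2731 to 1774 for stage in TSLP without TSLP immature 1, and from 2634 to 1658 between mature cells without IL-3 mature 2 and to 1714 with only the groups compared. They ran from 588 to 2243 between immature cells (1443 with all libraries) and from 240 to 723 for the interaction (455). The median over all genes for stage in IL-3 went from -0.06 to 0.04 with thinned counts or the 10 CPM filter, and for stage in TSLP from -0.03 to 0.07 with that filter. Without a filter 44.8% of calls between immature cells were higher in TSLP, against 55.6%.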
